A study of Rattus norvegicus with 36 samples.

Results

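Genes of the muscle calcium store and its cytosolic buffer, 8 in all, were followed through the growth of 2 rat muscle samples. The first was extraocular muscle (EOM), which turns the eye. The other was hindlimb muscle, labelled gastrocnemius/soleus and called leg here, which joins a mostly fast and a mostly slow muscle. The genes were chosen by name: Atp2a1, Atp2a2, Casq2, Pln, Pvalb, Asph, Dhrs7c and Homer2. Each probe set (a group of short probes for 1 transcript) annotated to exactly 1 of these symbols was taken, which gave 13 probe sets out of 8799 on the Affymetrix RG-U34A array. Atp2a2 has 4 of them, Homer2 has 3 and each of the other 6 genes has 1. All 13 passed the filter on dim signals, as did 6672 probe sets in all. Total RNA was taken at postnatal days 0, 7, 14, 21, 28 and 45 with 3 arrays for each muscle and age, 36 arrays in 12 groups. No treatment, genotype or strain is named in the labels used here. Whether the 3 arrays of a group stem from different animals is not stated there, so a p-value speaks only to the spread among these arrays, which may be technical.

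A muscle fibre contracts when calcium leaves the sarcoplasmic reticulum through release channels, and it relaxes when calcium pumps of the SERCA family return it. Calsequestrins hold the calcium inside the store, junctional proteins tie the store to the release channel, and parvalbumin binds calcium in the cytosol of fast fibres. Phospholamban slows the pump and is best known from heart, slow skeletal and smooth muscle.

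The starts of 3 members are shown because their pump and store genes differ in base composition and in muscle-type motifs. Of the 8 genes, 5 had an entry in the RefSeq promoter table (build GRCr8), and the entries of Pln and Pvalb start inside the span of the gene and are not printed. Each line gives the 250 bases before the start, 5′ to 3′ on the gene's strand, with capitals marking CANNTG (the E-box bound by myogenic factors, the same on both strands), CCAAT in either orientation, and the MEF2 site.
Atp2a1, chr1:190475411-190475660, minus strand: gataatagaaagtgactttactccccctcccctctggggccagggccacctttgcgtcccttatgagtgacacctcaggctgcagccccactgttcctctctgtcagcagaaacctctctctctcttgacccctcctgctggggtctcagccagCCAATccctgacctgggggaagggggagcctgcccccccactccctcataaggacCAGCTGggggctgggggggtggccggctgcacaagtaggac
Atp2a2, chr12:39733269-39733518, plus strand: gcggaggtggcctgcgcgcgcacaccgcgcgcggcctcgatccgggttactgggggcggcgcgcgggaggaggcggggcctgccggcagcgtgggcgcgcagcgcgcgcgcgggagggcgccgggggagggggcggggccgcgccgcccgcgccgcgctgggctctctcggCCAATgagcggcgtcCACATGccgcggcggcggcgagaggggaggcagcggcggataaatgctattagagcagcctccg
Casq2, chr2:192214306-192214555, plus strand: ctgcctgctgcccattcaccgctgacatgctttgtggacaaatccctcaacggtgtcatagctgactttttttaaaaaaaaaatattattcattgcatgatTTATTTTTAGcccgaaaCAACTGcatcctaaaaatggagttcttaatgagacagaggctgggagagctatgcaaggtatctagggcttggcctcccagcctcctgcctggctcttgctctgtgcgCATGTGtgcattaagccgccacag

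The Atp2a2 start held 45 CpG pairs and 80% G plus C, against 2 CpG pairs and 62.4% at Atp2a1 and 5 CpG pairs and 46.4% at Casq2. Over all 33465 promoters of the table the medians were 5 CpG pairs and 51.2%. The E-box was present in all 3 starts printed and in 65.5% of all promoters, so its presence sets none of them apart. CCAAT was present at both pump genes and in 34% of all promoters. The MEF2 site, a motif of muscle gene promoters, was present at Casq2 and in 2.96% of all promoters. TATAAA (12.9% of all promoters) and the CArG box (1.5%) were not in these 3 windows. A match describes letters and not a site in use.

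The muscle labels held up against fibre markers. All 11 tested genes of a list of skeletal fibre markers had signal above the floor on at least 1 array of each group at days 0, 7, 14 and 45, with 1 gene at the floor in both muscles at days 21 and 28. Myh13, the extraocular myosin, was higher in EOM by 5.89 on the log2 scale at day 45. At day 0 its difference did not pass the limma test (-0.30, adjusted p = 0.914), so it gives no check of the labels at that age. At day 0 the fibre markers read 96057 to 112661 summed intensity units in EOM and 111107 to 167181 in leg, and 4 of 11 were lower and 1 higher in EOM, with a median log2 difference of -0.62. The higher one was Ckm, also the gene at the floor at days 21 and 28. At day 0 Ckm read 3987, 0.2 and 0.1 on the leg arrays, so its call rests on leg arrays at the floor. Epithelial and gland markers were higher in EOM at day 0 for 6 of 6 genes, with sums of 21454 to 27164 against 2051 to 3287. At day 7 it was 3 of 6 (median 2.15, sums of 6156 to 12279 against 1957 to 3657), and none passed by limma at later ages (0 to 1 of 6 at an unadjusted p under 0.05). Slow fibre markers were lower in EOM for 3 of 6 genes at day 7 (median -0.76), 5 of 6 at day 28 (median -1.08) and 4 of 6 at day 45 (median -1.13). The part of these markers in the members' differences was not tested. Array medians ran from 418.7 to 652.2, and arrays of a group correlated at 0.877 to 0.953. In 46 of the tested probe sets the 3 arrays of some group spanned 5 or more log2 units, 43 of them among the 851 that reached the brightest 5%. The drops were most frequent on EOM day 45 arrays 1 and 2 (27 and 17 such probe sets) and leg day 0 array 2 (14).

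Differences between the muscles ran mostly one way. By the limma test Dhrs7c was lower in EOM at every age but day 21, and Asph and Homer2 at days 14, 28 and 45. Casq2 was lower at days 0 and 7 and Pvalb at day 7. The 4 probe sets of the pump gene Atp2a2 did not pass the limma test between muscles at any age (0 of 24 tests, and 3 at an unadjusted p under 0.05). At day 0, 2 of 13 probe sets passed, both lower in EOM, where 6.32% of all tested probe sets passed (3.93% higher and 2.4% lower in EOM). At day 7, 1 was higher and 3 were lower, 4 of 13 in all, against 4.98% (3.33% higher and 1.65% lower). At day 14, 1 was higher and 5 were lower, 6 of 13, against 4.92% (2.61% and 2.31%). At day 21 a single probe set, that of Pln, was higher and none was lower, against 4.03% (3.48% and 0.555%). At day 28 again 1 was higher and 5 were lower, against 11.8% (7.63% and 4.18%), and day 45 gave the same counts against 10.6% (6.89% and 3.69%). Homer2 gives 3 of the 6 calls at days 14, 28 and 45 with probe sets of 1 gene, so the calls came from 4 genes at each of these ages. The call higher in EOM at days 7 to 45 was that of Pln, which entered the test through EOM arrays alone, with all 18 leg arrays under the filter level, so its call adds no support to these counts. Among the other 12 probe sets, 3 were called at day 7 and 5 at days 14, 28 and 45, all of them lower in EOM. At day 21, 0 were called by limma and 4 had an unadjusted p under 0.05. Of these 4, rc_AA957510_s_at of Atp2a2 was higher in EOM (0.55) and the others were lower.

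Over age, more member probe sets passed the threshold in EOM than in leg. From day 0 to day 45, 9 of 13 probe sets changed in EOM, 5 up and 4 down, where 31.3% of all probe sets passed (12.9% up and 18.4% down). In leg 3 of 13 changed, 2 up and 1 down, where 32.8% passed (14.4% up and 18.5% down). The calls came from 7 genes in EOM and 3 in leg, and 2 of the EOM calls are Atp2a2 probe sets of opposite sign. At an unadjusted p under 0.05 the counts of probe sets were 9 in EOM and 5 in leg. Whether the counts differ between the muscles was not tested. Over the same ages epithelial and gland markers fell in EOM for 6 of 6 genes (median -3.75) and in leg for 1 of 6 (median -0.86), and 4 of 6 passed the test of the difference between the changes. Their part in the members' changes was not tested. A test of the difference between the changes passed for 3 probe sets, Casq2 with a positive and 2 of Homer2 with a negative difference, EOM minus leg (background 3.7%, 2.25% positive and 1.45% negative). The F test over all 6 ages passed for 10 of 13 in EOM (background 31.4%) and for 5 of 13 in leg (background 35.9%), and the F test of muscle by age passed for 5 of 13 (background 4.05%).

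**Figure D1:**
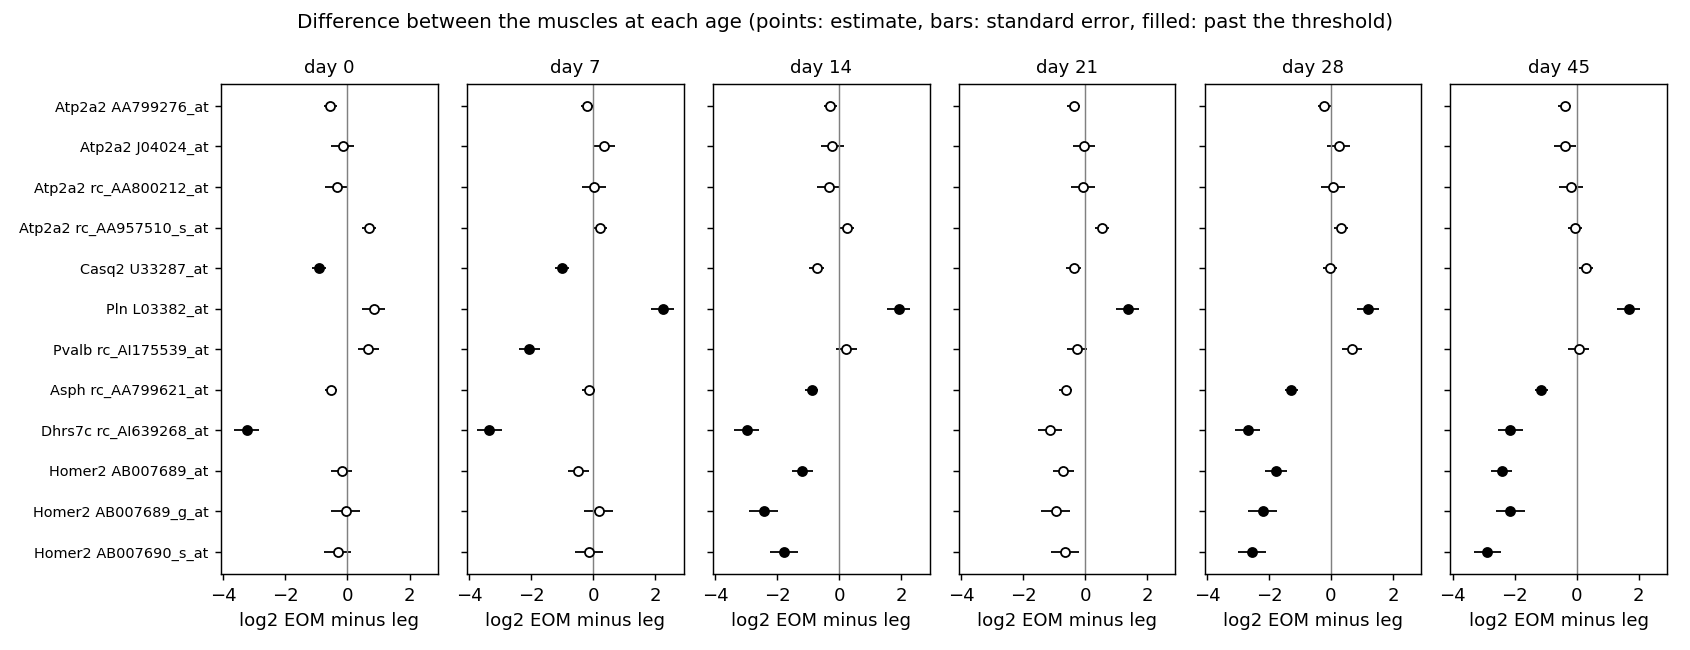
EOM minus leg on the log2 scale (horizontal axis) for 12 probe sets (vertical axis), with a panel for each postnatal day. Bars give 1 SE and filled points are past the threshold. Dhrs7c lies left of 0 at every age and Pln right of 0, and Atp2a1 is left out because its SE was 2.07.

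Atp2a1 encodes SERCA1, the calcium pump of fast fibres. Its probe set gave no usable comparison. In EOM the arrays read 11678, 10538 and 17142 at day 0, and 11649, 0.4 and 11567 at day 21. In leg they read 24026, 5494 and 14926 at day 0, and 13353, 0.6 and 1022 at day 45. Single arrays thus fell from the brightest range to the floor beside replicates that stayed bright. EOM day 45 ran the other way, with 289.9 and 374 on arrays 1 and 2 and 34340 on array 3. The widest span within a group was 7.69 log2 units and the SE of each difference between groups was 2.07, so that the day 0 difference of 0.03 had a 95% interval from -4.19 to 4.26. Atp2a1 ranked 13th by this span among the tested probe sets. Casq1, the calsequestrin of fast fibres and no member here, also dropped on single arrays, to 977.4 on EOM day 21 array 2 and 298.1 on leg day 28 array 1.

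Atp2a2 encodes SERCA2, the pump of heart and slow fibres, whose other splice form serves most cells. Its 4 probe sets did not move together. AA799276_at read 13439, 12089 and 12001 in EOM at day 0 and 16262, 19942 and 24404 at day 45, so all 3 arrays of day 45 lay above those of day 0. In leg it read 23615, 16021 and 16263 at day 0 and 31786, 27544 and 20003 at day 45, where the ages overlap. It rose in EOM by 0.67 ± 0.21 (log2, SE, limma adjusted p = 0.0136) and the leg difference was 0.50 ± 0.21 (adjusted p = 0.0648). The changes did not differ by the test between muscles (0.17, 95% interval -0.43 to 0.78, adjusted p = 0.882). The EOM call was lost without EOM day 45 array 3 (0.53, adjusted p = 0.0815), under quantile normalization (0.35, adjusted p = 0.0856) and with the compared groups fitted alone (adjusted p = 0.0748). The leg difference passed without leg day 0 array 1 (0.69, adjusted p = 0.0194) or day 45 array 3 (0.69, adjusted p = 0.0176), and with the replicate block (adjusted p = 0.0399). All 36 values lay in the brightest 5% of the table, where a real difference can be compressed.

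The probe set rc_AA957510_s_at of the same gene went the opposite way in EOM; its suffix marks probes that can match more than 1 transcript. It read 4659, 5225 and 4807 in EOM at day 0, all above the 3142, 2792 and 2049 of day 45. In leg it read 2570, 3584 and 3000 at day 0 and 4555, 1983 and 2196 at day 45, which overlap. It fell by 0.90 ± 0.22 in EOM (adjusted p = 0.00231), while the leg difference was -0.16 ± 0.22 (adjusted p = 0.62). EOM was above leg at day 0 without overlap, by 0.69 ± 0.22, short of the threshold (adjusted p = 0.0613). Without leg day 0 array 2 it passed at 0.82 (adjusted p = 0.0487), as it did under quantile normalization (0.72, adjusted p = 0.0328). Without leg day 45 array 1 the leg fall passed too (-0.53, adjusted p = 0.0463).

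The other 2 probe sets of Atp2a2 showed no change that passed. J04024_at read 360.3 to 949.9 in EOM and 280.7 to 1315.7 in leg, and rc_AA800212_at read 336.6 to 1518 over the 36 arrays. Neither passed a limma test in any comparison, the F tests over age included (0 of 24, and 0 at an unadjusted p under 0.05). From day 0 to 45 in EOM their differences were 0.39 ± 0.36 (95% interval -0.34 to 1.12) and 0.77 ± 0.38 (95% interval -0.01 to 1.55), and the second passed under quantile normalization (0.94, adjusted p = 0.0409). Which transcripts the 4 probe sets detect was not examined here.

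**Figure D2:**
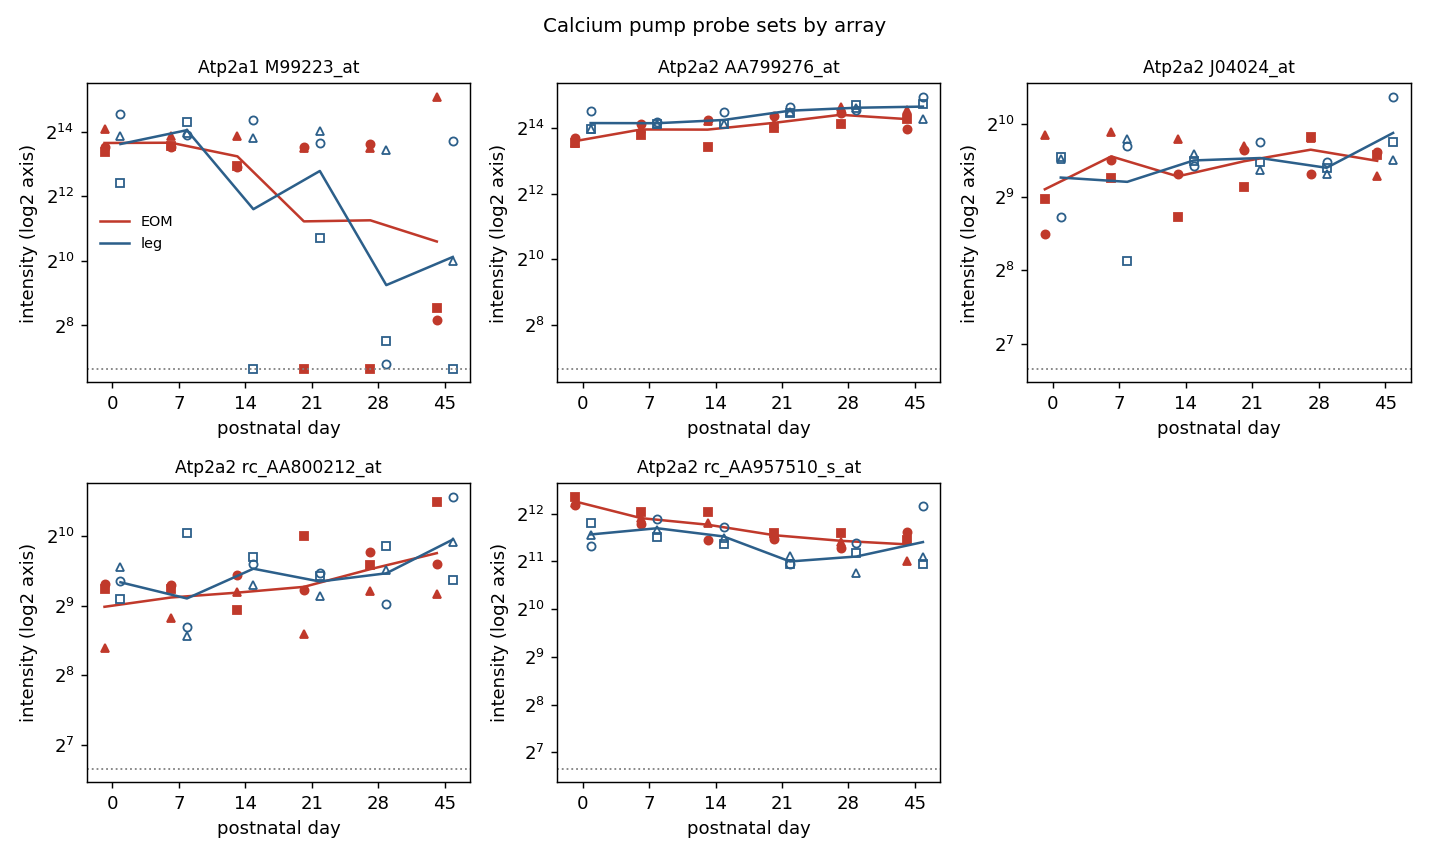
Intensity (log2 axis) by postnatal day (ages evenly spaced) for the probe sets of Atp2a1 and Atp2a2, with circles, squares and triangles for arrays 1, 2 and 3, filled for EOM and open for leg, a line through the group means and a dotted line at the floor of 100.9. Single arrays of Atp2a1 fall to the floor, AA799276_at stays between 10948 and 31786, and rc_AA957510_s_at of EOM falls from day 0 to day 45.

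Pln encodes phospholamban, the small membrane protein that restrains the SERCA2 pump. It was higher in EOM than in leg from day 7 on. EOM arrays read 170.5, 199.9 and 175 at day 0 and 527, 507 and 399 at day 7. Leg arrays read 56.9, 23 and 23.9 at day 0 and 79.4, 18.6 and 56 at day 7, all below the floor of 100.9. The groups were apart at both ages, and the leg level is known only as a bound. At day 7 the difference was at least 4.7-fold (log2 difference at least 2.23, SE 0.36, adjusted p = 0.000109). At day 0 it was at least 0.84 ± 0.36 and did not pass (adjusted p = 0.215). It passed with the floor at the 10th percentile (1.85, adjusted p = 0.00915) and with the 2 groups fitted alone (adjusted p = 0.0317). The floored leg arrays are equal, so in the last fit the spread of Pln came from EOM alone and its pass adds no support. Leg arrays of days 7 and 21 were all floored too, so these groups also add no spread to the SE.

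At the later ages EOM kept a higher Pln signal. At day 14 EOM read 358, 338 and 510.4 and leg 112, 20.2 and 20.8, at least 3.78-fold higher (adjusted p = 0.000985). At day 21 EOM read 246, 315 and 229 against 22.8, 59.7 and 52.4, at least 2.59-fold higher (adjusted p = 0.0259). At day 28 the arrays overlapped, 358, 449 and 291 against 299.8, 69.2 and 128, with a log2 difference of at least 1.20 ± 0.36, since 1 leg array was at the floor (adjusted p = 0.0273). At day 45 no array was at the floor and EOM, at 652, 605 and 345, lay above leg, at 121, 317 and 111 (1.67 ± 0.36, 3.18-fold, adjusted p = 0.00233). The day 21 call was lost without any one of EOM arrays 1, 2 or 3 or leg arrays 1 or 2 (1.23 to 1.47, adjusted p 0.0601 to 0.0856). The day 28 call was lost without EOM arrays 1 or 2 or leg arrays 2 or 3 (0.88 to 1.20, adjusted p 0.0707 to 0.166). With the compared groups alone the calls of days 21, 28 and 45 were lost (adjusted p = 0.104, 0.191 and 0.165), and without EOM day 45 arrays 1 and 2 and leg day 0 array 2 that of day 45 was (1.09, adjusted p = 0.239).

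Within EOM, Pln rose from day 0 to day 45 by 1.51 ± 0.36 (adjusted p = 0.00169), a call lost without the same 3 arrays (0.93, adjusted p = 0.205). The leg difference was at least 0.68 ± 0.36, since all leg arrays of day 0 were at the floor (adjusted p = 0.152), and at least 1.69 with the lower floor (adjusted p = 0.0044). Only 11 of the 36 arrays lay above the filter level for Pln and 12 lay at the floor, so the probe set entered the test through its EOM arrays. With no filter, the calls of days 7 to 45 passed as well (adjusted p 7.56e-05 to 0.0205). The Pln differences are the same with and without the filter, so this pass adds no support. Phospholamban is also a smooth muscle protein, and smooth muscle markers were higher in EOM for 2 of 5 genes at day 0 (median 1.18), 1 of 5 at day 7 (median 0.96) and 3 of 5 at day 45 (median 1.45). At days 14 and 28, 1 of 5 was lower (medians 0.05 and -0.69), and at day 21 none passed by limma (median -0.03, 2 at an unadjusted p under 0.05). Their summed intensity at day 45 was 17312 to 26462 in EOM and 12371 to 15133 in leg. The part of smooth muscle in the Pln result was not tested.

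Casq2 encodes the calsequestrin of heart and slow fibres, which young fast fibres also hold. It started lower in EOM than in leg, fell in both muscles and did not differ by the test at day 45. EOM arrays read 5812, 7015 and 5652 at day 0, and leg arrays read 10084, 10779 and 14265. At day 7 they read 5181, 5973 and 7649 in EOM against 11044, 13896 and 12488 in leg. Both ages separate the muscles without overlap, by -0.92 ± 0.23 at day 0 (1.89-fold lower in EOM, adjusted p = 0.0115) and by -1.01 ± 0.23 at day 7 (2.01-fold, adjusted p = 0.00661). The day 0 call was lost without EOM array 1 (-0.88, adjusted p = 0.0544) or leg array 3 (-0.77, adjusted p = 0.0856), and the day 7 call without EOM array 1 (-0.88, adjusted p = 0.0614). In bulk samples such as these, fewer cells of a type and less RNA per cell cannot be told apart. At day 0 the fibre markers were also lower in EOM, as given above, and slow fibre markers were lower for 2 of 6 genes (median -0.72). Their part in the Casq2 difference was not tested.

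The Casq2 difference was smaller at the later ages. At day 14 EOM read 3184, 3743 and 3531 and leg 4326, 5960 and 7425, still without overlap, a difference of -0.73 short of the threshold (adjusted p = 0.0658). It passed without leg day 14 array 1 (-0.94, adjusted p = 0.0327) and with the replicate number as a block (adjusted p = 0.045). At day 28 EOM read 1741, 1724 and 2046 and leg 1619, 2234 and 1778, and the groups overlapped (-0.02, 95% interval -0.50 to 0.45). At day 45 they read 2273, 1806 and 2011 against 1979, 963 and 2313 (0.30, 95% interval -0.17 to 0.78). Casq2 fell by 1.60 ± 0.23 in EOM, which is 3.03-fold (adjusted p = 2.81e-06), and by 2.82 ± 0.23 in leg, which is 7.06-fold (adjusted p = 6.35e-11). The fall was smaller in EOM by 1.22 ± 0.33 (adjusted p = 0.0303). That difference missed the threshold without any one of EOM day 0 arrays 1 or 3, EOM day 45 array 1, leg day 0 array 3 or leg day 45 array 2 (0.83 to 1.18, adjusted p 0.0673 to 0.125). It also missed it with arrays scaled to the same median (adjusted p = 0.0513) and with the compared groups alone (adjusted p = 0.187). Without EOM day 45 arrays 1 and 2 and leg day 0 array 2 the difference was 1.26, with 1 array left at EOM day 45.

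Asph encodes aspartate beta-hydroxylase and, from the same gene, junctin and junctate, proteins of the store membrane. It rose in both muscles and ended lower in EOM. EOM arrays read 1292, 1111 and 1437 at day 0 and 8508, 7209 and 6231 at day 45. Leg arrays read 1743, 2161 and 1662 at day 0 and 15343, 17260 and 15446 at day 45. In both muscles the ages were far apart, with rises of 2.51 ± 0.20 in EOM (5.7-fold, adjusted p = 7.92e-11) and 3.12 ± 0.20 in leg (8.68-fold, adjusted p = 5.24e-13). The 2 rises did not pass a test of their difference (-0.61 ± 0.29, adjusted p = 0.333).

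The muscles overlapped in Asph at day 7 and were apart at day 14. At day 7 EOM read 4479, 5215 and 3718 and leg 4800, 6196 and 3988, which overlap (-0.15, 95% interval -0.57 to 0.27). At day 14 EOM read 7258, 7428 and 5307, all below the 14797, 12346 and 10026 of leg (-0.89 ± 0.20, adjusted p = 0.00686). This call was lost without EOM array 3 (-0.74, adjusted p = 0.0534), without leg array 1 (-0.76, adjusted p = 0.0665) and with the 2 groups alone (adjusted p = 0.09). At day 28 EOM read 7478, 8942 and 6690 against 19956, 19146 and 16858 (-1.28 ± 0.20, 2.43-fold lower, adjusted p = 5.56e-05). At day 45 the difference was -1.14 ± 0.20 (2.2-fold lower, adjusted p = 0.00029). These 2 calls held under every alternative run, at ages when the slow fibre markers had median differences of -1.08 and -1.13. Day 21 gave EOM 9003, 13001 and 7100 and leg 14667, 16204 and 12882, where 1 EOM array overlapped leg. That difference of -0.63 ± 0.20 did not pass (adjusted p = 0.0813) but did without EOM array 2 (-0.86, adjusted p = 0.0131), with the replicate block (adjusted p = 0.0192) and with the same median (-0.77, adjusted p = 0.0291). At day 0 the difference was -0.53 ± 0.20 (adjusted p = 0.139), past the threshold with the replicate block (adjusted p = 0.0375) and with the same median (-0.67, adjusted p = 0.0402).

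Pvalb encodes parvalbumin, the soluble buffer that takes up calcium in fast fibres. Its rise from day 0 to day 45 was the largest among the 13 probe sets in both muscles, and leg was ahead at day 7. At day 0 EOM read 621, 639.9 and 930.1 and leg 441, 428 and 483. At day 7 EOM read 1323, 1350 and 1457 while leg had reached 6200, 6465 and 4740. At day 14 EOM read 23802, 16884 and 21893 and leg 24576, 12656 and 17575. The muscles were thus apart at day 7, with a log2 difference of -2.06 ± 0.33 (4.18-fold lower in EOM, adjusted p = 0.000103), and overlapped at day 14 (0.23, 95% interval -0.45 to 0.91). The day 7 call held under every alternative run.

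After day 14 Pvalb stayed near the top of the scale. EOM read 24160, 6701 and 18021 at day 21 and 15795, 19680 and 35613 at day 45. Leg read 19444, 16409 and 15639 at day 21 and 32682, 20594 and 14681 at day 45. The muscles overlapped at both ages, with differences of -0.26 (95% interval -0.94 to 0.42) and 0.05 (95% interval -0.62 to 0.73). At day 28 EOM read 27775, 19011 and 24415, all above the 13291, 17352 and 13798 of leg, but the difference of 0.67 did not pass (adjusted p = 0.214). From day 0 to 45 Pvalb rose by 4.96 ± 0.33 in EOM (adjusted p = 1.14e-12) and by 5.58 ± 0.33 in leg (adjusted p = 5.56e-14). Because 23 of 36 values lay in the brightest 5%, these rises can be smaller than the real ones. The rises did not pass a test of their difference (-0.62 ± 0.47, adjusted p = 0.644), but the course over all 6 ages differed between the muscles (F test of muscle by age, adjusted p = 0.00161). Fast fibre markers as a list rose in both muscles for 5 of 8 genes (medians 1.19 in EOM and 0.96 in leg). Of all tested probe sets 12.9% rose in EOM and 14.4% in leg. At day 7, 2 of the 8 markers were lower in EOM and 0 higher by limma (median -0.37), where 1.65% of all tested probe sets were lower. The part of fast fibres in the Pvalb result was not tested.

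**Figure D3:**
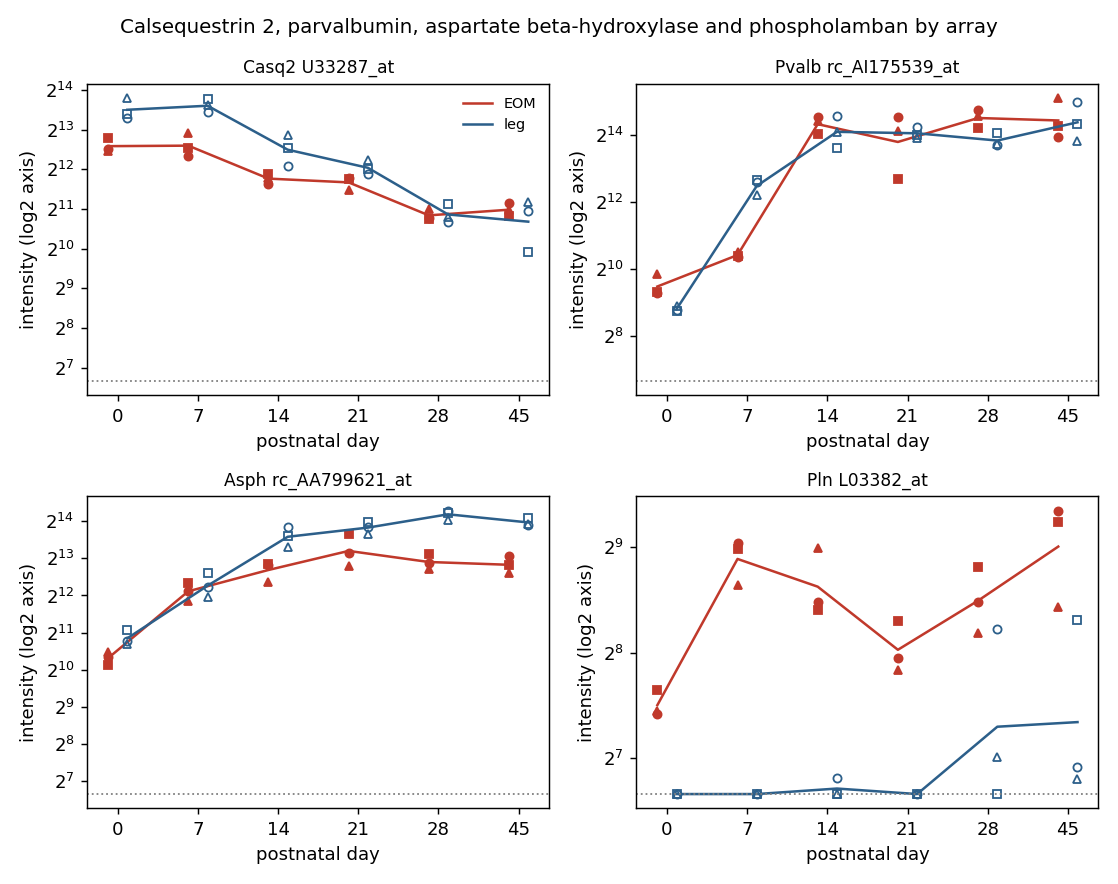
Intensity (log2 axis) by postnatal day (ages evenly spaced) for Casq2, Pvalb, Asph and Pln, with a symbol for each array (filled EOM, open leg), a line through the group means and a dotted line at the floor, where values under it are drawn. Casq2 falls from 5652 to 14265 at day 0 to 963 to 2313 at day 45, Asph and Pvalb rise, Pvalb of leg lies above that of EOM at day 7, and all leg arrays of Pln lie at the floor at days 0, 7 and 21.

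Dhrs7c encodes a short-chain dehydrogenase of the sarcoplasmic reticulum membrane. It was lower in EOM than in leg at every age but day 21 by the test. At day 0 EOM read 154, 574 and 465 and leg 3071, 3895 and 2979. At day 7 EOM read 222, 572 and 408 and leg 3825, 3724 and 3899. All leg arrays lay above all EOM arrays, and the differences were -3.25 ± 0.40 at day 0 (9.54-fold lower in EOM, adjusted p = 1.01e-06) and -3.36 ± 0.40 at day 7 (10.2-fold, adjusted p = 1.21e-06). The fibre markers had median differences of -0.62 and -0.53 at the same ages, and their part was not tested.

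EOM came closest to leg at day 21. At day 14 EOM read 1325, 1283 and 784 and leg 7228, 11178 and 8118 (-2.98 ± 0.40, adjusted p = 1.19e-05). At day 21 EOM read 4115, 5900 and 1818 and leg 7545, 9464 and 6458, which do not overlap, yet the difference of -1.13 ± 0.40 did not pass (adjusted p = 0.115). Without EOM day 21 array 2 it did (-1.50, adjusted p = 0.0366). EOM read 987, 1667 and 1394 at day 28 and 813, 1240 and 2041 at day 45, against 9531, 7847 and 8198 and then 5991, 6174 and 4835 in leg, ages at which slow fibre markers were also lower in EOM, as given above. The differences were -2.69 ± 0.40 (6.44-fold, adjusted p = 2.05e-05) and -2.15 ± 0.40 (4.43-fold, adjusted p = 0.000425). Without EOM day 45 arrays 1 and 2 and leg day 0 array 2, the day 45 difference was -1.47 (adjusted p = 0.132). In order of level, leg at days 14, 28 and 21 came first without a gap, then leg at day 45, then leg at days 7 and 0 with EOM at day 21 between them, and EOM at days 7 and 0 came last.

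Over age Dhrs7c rose in EOM by 1.88 ± 0.40 (adjusted p = 0.000457), and in leg the difference was 0.78 ± 0.40 (adjusted p = 0.139, or 0.0172 with the leg groups alone). In leg the F test over all ages passed (adjusted p = 0.0119), with the highest group mean at day 14. The changes did not pass a test of their difference (1.11 ± 0.57, adjusted p = 0.385), nor did the muscle by age test (adjusted p = 0.0751).

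Homer2 encodes a scaffold protein that links calcium release channels and receptors at membranes. All 3 of its probe sets overlapped between the muscles at day 0 and were lower in EOM at days 14, 28 and 45. AB007689_at read 1668, 1982 and 1660 in EOM at day 0 and 533, 341 and 983 at day 45. In leg it read 1910, 1869 and 2228 at day 0 and 3483, 2297 and 3376 at day 45. The muscles overlapped at day 0 (-0.18, 95% interval -0.87 to 0.51) and were apart at day 45 (-2.41 ± 0.34, 5.33-fold lower in EOM, adjusted p = 1.35e-05). It fell in EOM by 1.65 ± 0.34 (adjusted p = 0.000328), the leg difference was 0.59 ± 0.34 (adjusted p = 0.192), and the changes differed by -2.23 ± 0.48 (adjusted p = 0.0046).

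AB007690_s_at gave the same course. It read 1120, 839 and 593 in EOM at day 0 and 156, 230.4 and 151 at day 45, the latter all under the filter level of 320.4. In leg it read 1115, 911 and 1057 at day 0 and 1168, 1475 and 1258 at day 45. The difference between muscles was -2.88 ± 0.45 at day 45 (7.36-fold lower in EOM, adjusted p = 4.5e-05), and the changes differed by -2.56 (adjusted p = 0.0158). Without EOM day 0 array 1 that difference was -2.34 and missed the threshold (adjusted p = 0.0527). AB007689_g_at read 257, 531 and 184 in EOM at day 45 against 1506, 1063 and 1345 in leg (-2.14 ± 0.46, adjusted p = 0.00233, or 0.0604 with the groups alone). Its leg difference from day 0 to 45 was 1.14 ± 0.46 (adjusted p = 0.0586), and it passed with the same median, quantile normalization, the replicate block and the groups alone (adjusted p 0.0139 to 0.0484). The F test over the leg ages passed (adjusted p = 0.0354). Its changes differed by -2.09, short of the threshold (adjusted p = 0.0728), and by -2.52 without EOM day 45 array 2 (adjusted p = 0.0284). Without EOM day 45 arrays 1 and 2 and leg day 0 array 2, the difference between the changes passed for none of the 3 (-1.38 for AB007689_at, adjusted p = 0.168, and -2.70 for AB007690_s_at, adjusted p = 0.0607), and the EOM fall of AB007689_at did not pass (-0.84, adjusted p = 0.18).

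Between these ages the Homer2 difference was called at days 14 and 28 and not at day 21. At day 14 the differences were -1.19, -2.43 and -1.78 (adjusted p = 0.0348, 0.00107 and 0.0143, in the order AB007689_at, AB007689_g_at, AB007690_s_at). The first was lost without any one of EOM arrays 2 or 3 or leg arrays 1, 2 or 3 (-1.23 to -0.90, adjusted p 0.0613 to 0.22) and under 4 other settings (adjusted p 0.0521 to 0.118). The third was lost without EOM arrays 2 or 3 or leg arrays 1 or 2 (-1.74 to -1.48, adjusted p 0.0621 to 0.101) and with the groups alone (adjusted p = 0.129). At day 21 EOM arrays spread widely, for example 834, 484 and 121 for AB007690_s_at, and the differences of -0.70, -0.95 and -0.65 did not pass (adjusted p = 0.3, 0.31 and 0.517). At day 28 they were -1.77, -2.21 and -2.54 (adjusted p = 0.000515, 0.00147 and 0.000181), and all 3 held under every alternative run. In EOM the log2 group means of AB007689_g_at were 7.13 at day 14 and 7.29 at day 28, against 6.66 for the floor. Those of AB007690_s_at were 7.33 at day 28 and 7.46 at day 45. No array was at the floor, but only 23 and 27 of the 36 arrays exceeded the filter level of 320.4. The size of the differences of these probe sets at these ages thus rests on dim EOM signals.

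**Figure D4:**
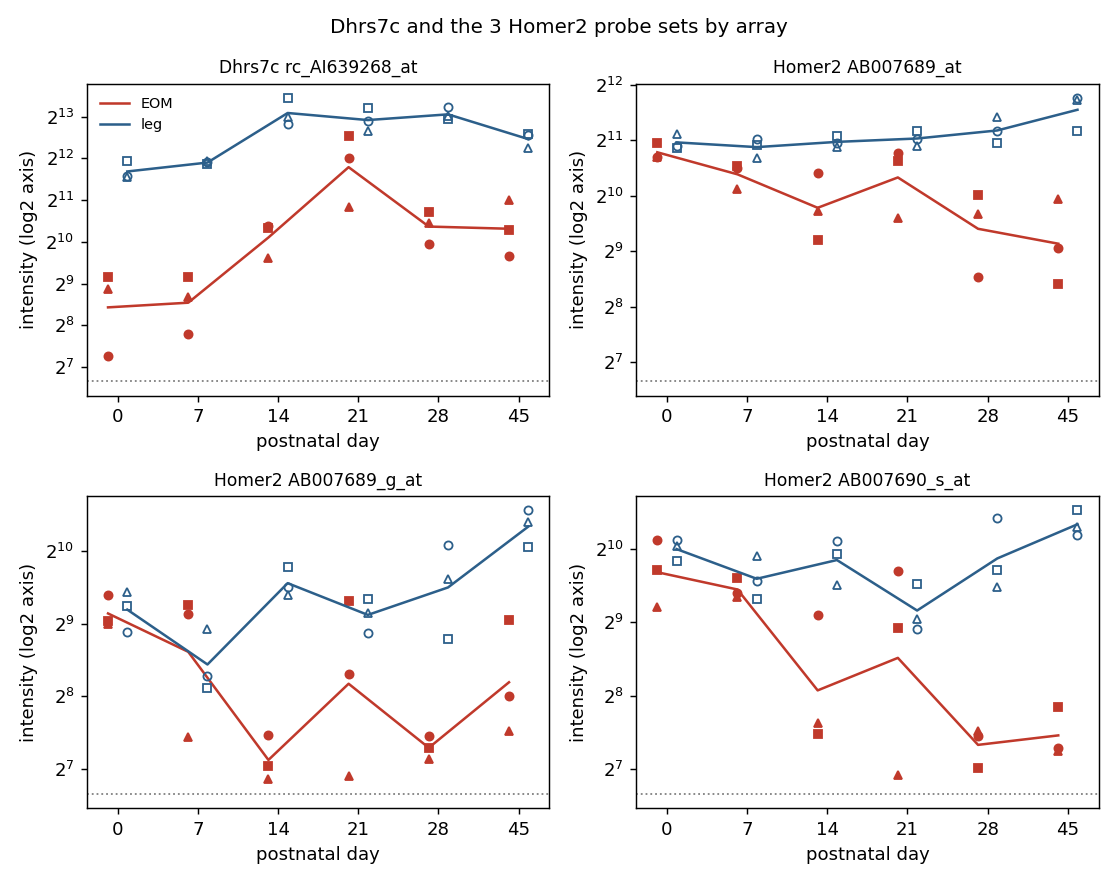
Intensity (log2 axis) by postnatal day (ages evenly spaced) for Dhrs7c and the 3 probe sets of Homer2, with a symbol for each array (filled EOM, open leg), a line through the group means and a dotted line at the floor. Dhrs7c of EOM peaks at day 21 with 1818 to 5900, and Homer2 of EOM lies below leg at days 14, 28 and 45.

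**Figure D5:**
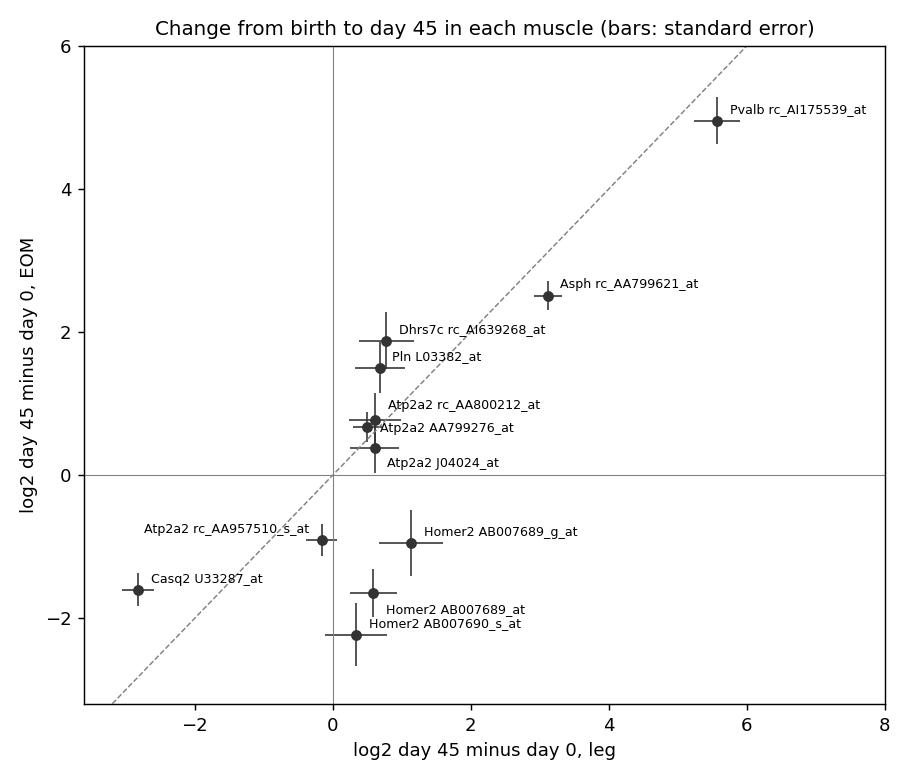
Change from day 0 to day 45 in leg (horizontal axis) and in EOM (vertical axis), in log2 units with bars of 1 SE, for 12 probe sets, with a dashed line where the changes are equal. Pvalb and Asph lie high on both axes, Casq2 low on both, and the 3 probe sets of Homer2 lie below the dashed line, with none of their leg changes and 2 of their 3 EOM changes past the threshold.

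Other genes of calcium handling gave 40 tested genes of a list of 60, by role. Of 11 genes of release and coupling, 2 were lower in EOM at day 0, 1 at day 7, 3 at day 14 and 1 at day 21. At day 28 it was 4, and at day 45 it was 3, with 1 higher. Of all tested probe sets 2.4%, 1.65%, 2.31%, 0.555%, 4.18% and 3.69% were lower at these ages, and 6.89% were higher at day 45. Cacng1, the gamma subunit of the muscle calcium channel, was lower in EOM at each age, by -1.93 at day 0 (adjusted p = 3.38e-05), -2.62 at day 28 (adjusted p = 2.86e-07) and -2.07 at day 45 (adjusted p = 1.64e-05). Cacna1s, the pore subunit and voltage sensor, was lower at day 0 (-1.13, adjusted p = 0.00379), day 14 (-1.03, adjusted p = 0.013), day 28 (-1.33, adjusted p = 0.00053) and day 45 (-0.86, adjusted p = 0.0258). Jph2, a junctophilin that holds the store against the surface membrane, was lower at day 14 (-1.02, adjusted p = 0.013), day 28 (-1.46, adjusted p = 0.000154) and day 45 (-0.77, adjusted p = 0.0462). Itpr1, a receptor channel for inositol trisphosphate, was higher at day 45 (1.29, adjusted p = 0.0255).

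Among 8 genes of calcium removal, none passed between the muscles by limma at any age, and 2 had an unadjusted p under 0.05 at day 0 and 2 at day 28. Slc8a3, a sodium calcium exchanger, rose from day 0 to 45 in EOM (1.27, adjusted p = 0.000854) and in leg (1.55, adjusted p = 8.01e-05). Of 6 genes of luminal storage, 2 were higher in EOM at day 28 and 1 at day 45, against 7.63% and 6.89% of all tested probe sets. With age 3 fell in each muscle, including Canx, the chaperone calnexin, in leg (-1.57, adjusted p = 0.000124). The share that fell over all tested probe sets was 18.4% in EOM and 18.5% in leg. Of 8 signalling genes, 1 was lower in EOM at days 14 and 21 and 2 at days 28 and 45. The shares lower over all tested probe sets were 2.31%, 0.555%, 4.18% and 3.69% at these ages. Camk2d, a calmodulin-dependent kinase, was lower by -1.40 at day 14 (adjusted p = 0.000129) and -1.02 at day 21 (adjusted p = 0.0068). It was also lower by -1.78 at day 28 (adjusted p = 2.03e-06) and -0.90 at day 45 (adjusted p = 0.0084). Ppp3ca, the calcineurin catalytic subunit, was lower by -0.94 at day 45 (adjusted p = 0.0106).

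Of 7 buffers and sensors, 1 was higher in EOM at days 7, 14, 21 and 45 and 3 at day 28, and 1 was lower at days 14 and 28. Of all tested probe sets 3.33%, 2.61%, 3.48%, 7.63% and 6.89% were higher at days 7, 14, 21, 28 and 45. The shares lower were 2.31% at day 14 and 4.18% at day 28. S100b was higher at day 7 (2.92, adjusted p = 0.0486) and day 28 (3.56, adjusted p = 0.00631). S100b is also a Schwann cell protein, and Schwann cell and nerve markers were higher in EOM for 4 of 7 genes at both ages (medians 1.14 and 1.74), a part that was not tested. S100a1, a sensor of striated muscle, rose from day 0 to 45 in EOM (1.63, adjusted p = 4.03e-07) and in leg (1.17, adjusted p = 5.43e-05). Its changes did not pass a test of their difference (0.46, adjusted p = 0.542). S100a1 was also higher in EOM at days 14, 21, 28 and 45 (0.89, 0.81, 0.97 and 0.87, adjusted p = 0.0089, 0.0217, 0.00196 and 0.006). Calm2, a calmodulin gene, was the only list gene whose changes differed between the muscles (-1.07, adjusted p = 0.0369). The median EOM minus leg difference at day 45 was -0.34 for release and coupling, -0.72 for signalling, -0.06 for removal, 0.32 for luminal storage and 0.42 for buffers and sensors, against 0.01 over all tested probe sets.

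Genes with the most similar profiles were sought over the 12 group means among 3881 other genes, as a description, since all points share the arrays. Dhrs7c was closest to Cacng1 (Pearson r = 0.974), the slow light chain gene Myl3 (0.962) and Capn3 (0.961), a muscle protease. Asph was closest to Uqcc2 (0.977), Cox5b (0.976) and Ndufv2 (0.968), and Pvalb to C8h15orf61 (0.975), Mfn2 (0.965) and Cox6c (0.959). Uqcc2, Cox5b, Ndufv2 and Cox6c encode parts or assembly factors of the respiratory chain, and Mfn2 a protein of mitochondrial fusion. Casq2 was closest to the ribosomal protein genes Rpl14 (0.971) and Rpl13a (0.959) and to Polr2i (0.951), an RNA polymerase subunit. Pln was closest to Tmem218 (0.941), and AB007689_at of Homer2 to Klhdc3 (0.934). The 4 probe sets of Atp2a2 named no gene in common, with Ppt2 (0.971) first for AA799276_at and P2rx4 (0.933) first for rc_AA957510_s_at.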

How the data were processed

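The authors hybridised total RNA to Affymetrix RG-U34A arrays, per the labels, and deposited 1 linear intensity per probe set and array. The deposited intensity values share a common scale, with the summarising software not given in the sources used here. No further scaling was done. A floor at the 20th percentile (100.9) was set before taking log2, 59 control probe sets were left out, and probe sets above the 40th percentile (320.4) on 3 or more arrays were tested. Group means over all 36 arrays were fitted with limma 3.58.1 in R 4.3.3 (trended prior, 24 residual degrees of freedom), with Benjamini-Hochberg adjustment over 6672 probe sets within a comparison and a threshold of 0.05. Figures used matplotlib 3.10.9. Fits were tested on simulated data.

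The members and the gene lists were chosen with earlier results of these data known. The platform annotation named 7006 probe sets by 1 symbol, 308 by several, and 1426 are unnamed here. For a listed gene the probe set with the highest mean was used. List genes named are up to the 4 largest differences past the threshold in a comparison. The later calls of Cacna1s and Jph2 and the further values of S100a1, genes so named, were added after their values were seen. Profiles name the 3 highest correlations, of which some are printed. Alternatives were scaling to the same median, quantile normalization, a floor at the 10th percentile, no filter, the compared groups alone, the replicate number as a block and each array left out. Leaving out EOM day 45 arrays 1 and 2 and leg day 0 array 2 was added after seeing the data, since bright probe sets dropped there most often, and EOM day 45 then has 1 array, assumed to vary like the other groups. The number of arrays limits the precision.

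Replicate numbers were checked for pairing by correlating deviations from the group means between EOM and leg arrays of the same number. Each correlation exceeded 0.1 at day 7 (0.131 to 0.296), day 14 (0.106 to 0.165) and day 21 (0.101 to 0.369), from the data and not the labels, but not at days 0, 28 and 45. Same-numbered arrays of different groups had a median of 0.0968 and others of -0.0553.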

Additional observations from a re-analysis of the deposited data

Results flagged for a closer look

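A test of the difference between the muscles in their change from day 0 to day 45 singled out 3 probe sets. Casq2 fell less in EOM than in leg, by 1.22 on the log2 scale. Homer2 changed downward in EOM relative to leg, with a difference of -2.23 for AB007689_at and -2.56 for AB007690_s_at. The third Homer2 probe set missed the threshold at -2.09. With 1 array left out, the Casq2 call was lost in 5 of 12 fits, that of AB007690_s_at in 1 and that of AB007689_at in 0. The Casq2 call was also lost with arrays scaled to the same median and with the compared groups alone. Without EOM day 45 arrays 1 and 2 and leg day 0 array 2 the differences were 1.26 for Casq2, -1.38 for AB007689_at and -2.70 for AB007690_s_at.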

How the results depend on the processing

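Of 40 called differences of members, 24 kept their call under every alternative run, 14 lost it under 1 or more alternatives other than a single left-out array, and 10 lost it when 1 array was left out. None changed sign. The counts of called member probe sets moved by over 1.5 times in these cases, and the cause was not tested. With the same median on each array, day 21 gave 2 in place of 1 and muscle by age 3 in place of 5. Over all tested probe sets that setting gave 187 in place of 269 and 242 in place of 270. With the compared groups alone, day 14 gave 3 in place of 6, day 21 gave 0 by limma (6 at an unadjusted p under 0.05) and the leg change 5 in place of 3. The calls among all tested probe sets fell as well, to 176 from 328 at day 14 and to 22 from 269 at day 21. For the leg change they fell to 1843 from 2190. With 1 array left out, day 0 gave 1 to 3, day 14 gave 3 to 6, day 21 gave 0 to 2 (2 to 6 at an unadjusted p under 0.05 where it gave 0) and the difference of changes 1 to 4. Among all tested probe sets these fits gave 278 to 390 at day 0, 177 to 333 at day 14 and 82 to 343 at day 21. For the difference of changes they gave 179 to 276. The main fit gave 422, 328, 269 and 247. Without EOM day 45 arrays 1 and 2 and leg day 0 array 2, EOM day 45 kept 1 array, so no count of calls is read. The differences of changes were then 1.26 for Casq2, -1.38 for AB007689_at and -2.70 for AB007690_s_at. With the replicate number as a block, day 21 gave 2 and the leg change 5. There 356 and 2399 of all tested probe sets passed, against 269 and 2190 in the main fit. The block lost 0 member calls and added 5. Scaling to the same median moved the median of all probe sets by -0.134 at day 0, -0.141 at day 21 and 0.112 for the EOM change.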
